A study of Mus musculus with 2 samples.

Results

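The genes described here are the 10 members of the GATA, TAL1 and LMO2 transcription factor network: Gata1, Gata2, Zfpm1, Tal1, Lyl1, Lmo2, Ldb1, Klf1, Gfi1b and Cbfa2t3. They were chosen by gene symbol, and all 10 were found, each as 1 of the 34745 gene models in the deposited tables. RNA-seq was done on cultured haematopoietic stem and progenitor cells taken from bone marrow of C57BL/6 mice that had been treated with 5-fluorouracil, an agent that depletes cycling marrow cells. The cells were enriched for progenitors, transduced with lentivirus in the presence of polybrene, cultured with SCF, IL-3 and IL-6 as cytokines, and sorted as transduced cells before RNA was taken. Both groups carry PML/RARa, the oncogenic fusion of PML with a retinoic acid receptor found in acute promyelocytic leukaemia: 1 library has the wild-type fusion (WT) and 1 library has the form labelled 2KR. Cells with the empty pMSCV vector, which the protocol also names, were not analysed here, so all values compare the forms of the fusion with each other and not with cells that lack it. The sources used here do not give the age of the mice, the promoter or whether animals were pooled.

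GATA1 and GATA2 are zinc finger proteins that bind the letters GATA in DNA. In blood progenitors they act in a complex in which TAL1 or LYL1, paired with an E protein, binds a neighbouring E-box, while LMO2 and LDB1 bridge the parts without touching DNA. The network is known for holding stem and progenitor cells in GATA2-led form and, when GATA1 replaces GATA2, for driving erythroid and megakaryocytic programmes. GATA factors also act in mast cells and eosinophils.

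The libraries held 17606168 counts in WT and 20462011 in 2KR. With 1 library per form there is no replicate check and no p-value, and each value describes these libraries. Counts were scaled to CPM, counts relative to the scaled library total. Each fold is a ratio of CPM, 2KR against WT unless stated, followed by its exact 95% interval for counting error only. Levels of different genes are compared on the deposited FPKM scale, which divides by gene length. In a bulk sample, fewer cells of a type and less RNA per cell cannot be told apart. Of 12 haematopoietic progenitor markers all 12 were tested, with a summed level of 470.1 FPKM in WT and 554.8 in 2KR. The receptor gene Kit, which is also on the mast cell and basophil list read below, was at 104 and 90.0 FPKM. Cd34 was at 39.2 and 74.1 FPKM, and the pan-leukocyte gene Ptprc at 14.3 and 11.2.

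In these cells Lmo2 was 3.33-fold higher in 2KR (2.72 to 4.09) and Gata2 was 1.53-fold lower (1.48 to 1.57), while the other 8 members lay within 1.5-fold on the log2 scale of CPM + 1 that served to call differences. Klf1 is among these 8 because 1 CPM is added to its low counts, and its plain CPM ratio was 1.74. Of the 10 members 1, Lmo2, was at least 2-fold higher on that scale, beside 2.66% of all 12466 models tested, which are those averaging 1 CPM or more over the libraries. None was at least 2-fold lower, beside 4.56% of all tested models. At 1.5-fold, 1 member was higher and 1 was lower, beside 6.92% and 9.67% of all tested models. The counting interval lay wholly above 1 for 4 members and wholly below 1 for 3, beside 31.6% and 28.5% of all tested models, so a ratio whose counting interval leaves out 1 was common in these libraries. The median log2 ratio of the members was 0.12, with a lowest of -0.61 and a highest of 1.60. The median over all tested models was 0.02, with quartiles of -0.21 and 0.23. All 10 members passed the filter of 1 CPM, Klf1 only narrowly with a mean of 1.49 CPM.

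**Figure D1:**
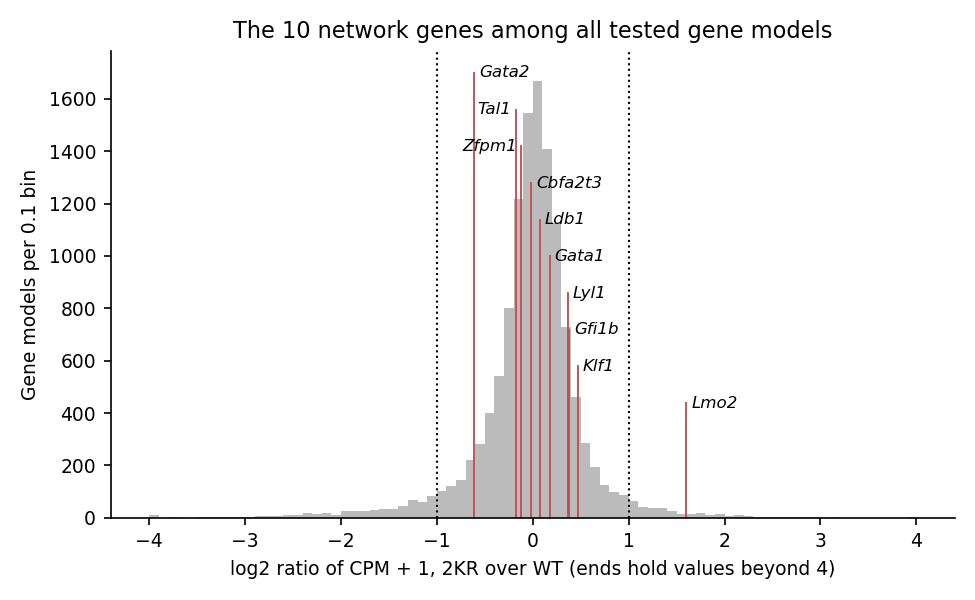
Histogram of the log2 ratio of CPM + 1 (x axis, 2KR over WT) for 12466 tested gene models, as models per bin (y axis), with a red line at the ratio of each of the 10 network genes (line heights only separate the labels) and dotted lines at 2-fold. Lmo2 lies outside the dotted lines on the higher side, Gata2 lies farthest to the left among the members at -0.61, and the others sit in the bulk of the distribution.

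Sequence before start sites of members is shown because the proteins of this network bind GATA and E-box letters, including at each other's genes. RefSeq start sites on GRCm38.p6 gave 14 windows for 9 of the 10 members, with Lmo2 as the member without an entry. Each window holds the 250 bases before a start, and both strands were searched. The GATA letters searched were AGATAA or TGATAA, found in 5 of the 14 windows and in 16.6% of 32851 windows of the same length over all genes. The E-box letters searched were CAGATG or CAGCTG, found in 2 of the 14 windows and in 25.5% of all windows. The windows that held either are printed from 5′ to 3′ on the strand of the gene, with these GATA and E-box letters, on either strand, in capitals. They are chr4:115056176-115056425 on the plus strand for a start of Tal1 and chr19:46037071-46037320 on the minus strand for a start of Ldb1. Those of Klf1 and Gfi1b are chr8:84901732-84901981 on the plus strand and chr2:28621983-28622232 on the minus strand. That for a start of Cbfa2t3 is chr8:122699110-122699359 on the minus strand.
Tal1: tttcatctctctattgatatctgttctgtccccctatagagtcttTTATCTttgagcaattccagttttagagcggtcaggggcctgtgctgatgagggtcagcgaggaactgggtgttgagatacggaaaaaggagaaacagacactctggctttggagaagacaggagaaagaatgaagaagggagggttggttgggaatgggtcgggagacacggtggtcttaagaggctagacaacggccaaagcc
Ldb1: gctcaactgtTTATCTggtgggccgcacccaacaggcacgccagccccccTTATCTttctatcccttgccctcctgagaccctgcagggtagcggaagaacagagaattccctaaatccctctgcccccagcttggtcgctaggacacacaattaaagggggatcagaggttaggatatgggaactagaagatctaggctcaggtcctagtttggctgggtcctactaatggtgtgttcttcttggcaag
Klf1: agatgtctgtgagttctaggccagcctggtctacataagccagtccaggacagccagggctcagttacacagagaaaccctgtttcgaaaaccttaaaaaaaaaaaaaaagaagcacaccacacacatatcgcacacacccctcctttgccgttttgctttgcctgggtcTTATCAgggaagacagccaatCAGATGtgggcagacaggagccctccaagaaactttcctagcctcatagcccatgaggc
Gfi1b: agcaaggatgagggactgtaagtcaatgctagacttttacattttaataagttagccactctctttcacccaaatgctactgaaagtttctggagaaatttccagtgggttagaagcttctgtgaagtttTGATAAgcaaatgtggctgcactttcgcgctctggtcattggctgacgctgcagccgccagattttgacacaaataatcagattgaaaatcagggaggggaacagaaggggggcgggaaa
Cbfa2t3: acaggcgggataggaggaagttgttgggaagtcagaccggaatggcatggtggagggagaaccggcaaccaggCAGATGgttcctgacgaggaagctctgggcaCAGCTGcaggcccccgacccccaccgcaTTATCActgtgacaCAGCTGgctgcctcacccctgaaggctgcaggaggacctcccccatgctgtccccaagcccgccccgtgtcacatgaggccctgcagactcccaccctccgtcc

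The windows differ in how the letters are arranged. The GATA letters began 205 bases before the start in Tal1, 120 in Gfi1b and 80 in Klf1. The Klf1 window also had an E-box that began 59 bases before the start. The Cbfa2t3 window had 3 E-boxes, beginning 177, 146 and 104 bases before the start, and GATA letters at 118. The printed Ldb1 window had GATA letters at 240 and 200 bases before the start, and it lies inside the bounds of the Ldb1 model. The spaced pair CTGNNNNNNNNGATA is an E-box end followed by GATA, the arrangement known to be bound by the TAL1, LMO2 and GATA complex. It was in the printed windows of Tal1 and Klf1 and in 1.91% of all windows. The other Tal1 window held none of the letters searched. The pair in Klf1 overlaps its GATA letters, and that in Tal1, which overlaps a CACCC match, does not. CACCC, the letters bound by KLF1, was in 12 of the 14 windows and in 52.0% of all windows. The windows of Gata1, Gata2, Zfpm1 and Lyl1 held none of the searched GATA or E-box letters, which says only that these letters are not in these windows. A match is a description and not a binding site, and members with matches had ratios on both sides of 1.

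The GATA factors were in strongly unequal amounts. Gata2 (ENSMUSG00000015053, chromosome 6, 88193891 to 88207032 in GRCm38, plus strand), the GATA factor of stem cells, early progenitors and mast cells, had 11934 counts in WT against 9219 in 2KR, or 682.6 and 447.4 CPM. It was the most abundant member per length in both libraries, at 79.7 FPKM in WT and 53.0 in 2KR, above 96.8% and 94.2% of tested models. The ratio was 1.53-fold lower in 2KR, with a narrow interval (1.48 to 1.57) because the counts were high. This lies just past the 1.5-fold rule. On the log2 scale of FPKM + 1 its ratio was -0.58, which is short of the rule.

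Gata1 (ENSMUSG00000031162, chromosome X, 7959260 to 7978071, minus strand), the GATA factor of erythroid, megakaryocytic, mast cell and eosinophil maturation, had 97 counts in WT against 132 in 2KR. These gave 2.00 FPKM in WT and 2.34 in 2KR, and the ratio of 1.15 had an interval that held 1 (0.88 to 1.52). A difference was therefore not detectable at this depth. Gata2 was 39.9 times Gata1 per length in WT and 22.7 times in 2KR, a narrowing of 1.76-fold (1.34 to 2.32). Gata1 made up 2.44% of the summed GATA1 and GATA2 transcript level in WT and 4.23% in 2KR. The sum itself was 81.7 FPKM in WT and 55.3 in 2KR, so the lower sum lay in Gata2, beside a slightly higher Gata1 value.

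Zfpm1 (ENSMUSG00000049577, chromosome 8, 122282141 to 122337251, plus strand) encodes FOG1, the zinc finger cofactor that GATA factors need at many erythroid and megakaryocytic genes. It had 2159 counts in WT against 2344 in 2KR, at 28.7 and 26.8 FPKM. The ratio was 1.09-fold lower (1.02 to 1.15), a small difference for these counts. Gata2 was 2.78 times Zfpm1 per length in WT and 1.98 times in 2KR, a narrowing of 1.41-fold (1.32 to 1.4998).

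**Figure D2:**
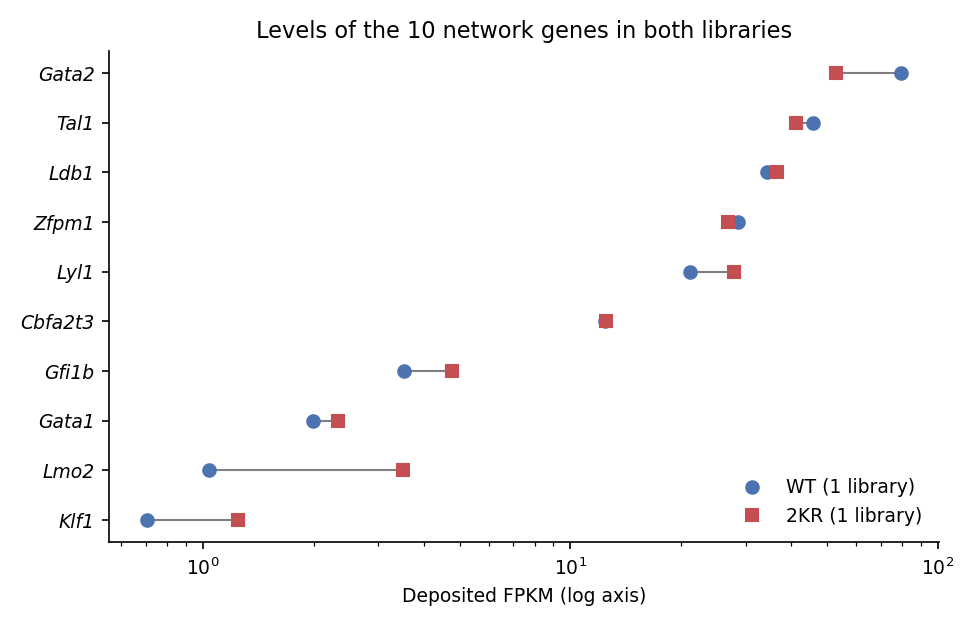
Deposited FPKM (x axis, log scale) of the 10 network genes (y axis, ordered by WT level) in the WT library (circles) and the 2KR library (squares), joined by a line. Gata2 is highest in both, at 79.7 and 53.0 FPKM, and the longest line is that of Lmo2, from 1.04 to 3.50.

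The bHLH factors shifted against each other by a small amount. Tal1 (ENSMUSG00000028717, chromosome 4, 115056426 to 115071755, plus strand), required for the start of blood formation and for erythroid cells, had 8137 counts in WT against 8523 in 2KR, at 45.7 and 41.2 FPKM. In CPM it was 1.13-fold lower in 2KR (1.09 to 1.16), and it remained the second most abundant member.

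Lyl1 (ENSMUSG00000034041, chromosome 8, 84701457 to 84704715, plus strand), a relative of TAL1 that can stand in for it in stem cells, had 670 counts in WT against 1025 in 2KR. Its level was 21.1 FPKM in WT and 27.8 in 2KR, 1.30-fold higher by CPM (1.18 to 1.43). Lyl1 lies inside the bounds of Nfix on the opposite strand, which had 379 counts in WT against 544 in 2KR. The sources used here do not say whether counting used strand, so reads where these models overlap cannot be told apart. Tal1 was 2.16 times Lyl1 per length in WT and 1.48 times in 2KR, a narrowing of 1.46-fold (1.32 to 1.62). Their sum was close between the libraries, at 66.8 FPKM in WT and 69.0 in 2KR, and the share of Lyl1 in it was 31.6% in WT and 40.3% in 2KR.

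The bridging proteins held the member with the largest ratio. Lmo2 (ENSMUSG00000032698, chromosome 2, 103957986 to 103981878, plus strand) encodes a LIM-only protein that joins the bHLH and GATA parts and is an oncogene in T cell leukaemia. It had 123 counts in WT against 482 in 2KR, or 7.04 and 23.4 CPM. Its ratio of 3.33 (2.72 to 4.09) lay wholly above 2-fold by counting error. The level stayed low per length, at 1.04 FPKM in WT and 3.50 in 2KR, above 12.8% and 34.6% of tested models. The overlapping model 4931422A03Rik on the opposite strand had 0 counts in WT against 1 in 2KR.

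Ldb1 (ENSMUSG00000025223, chromosome 19, 46032593 to 46045214, minus strand) encodes the partner that binds LMO2 and pairs with itself to bring distant sites together. It had 4962 counts in WT against 6145 in 2KR, at 34.4 and 36.6 FPKM, a ratio of 1.05 (1.01 to 1.09). Its first bases overlap Pprc1 on the opposite strand. Ldb1 was 33.1 times Lmo2 per length in WT and 10.5 times in 2KR, a narrowing of 3.16-fold (2.58 to 3.90). Tal1 was 44.0 times Lmo2 in WT and 11.8 times in 2KR, a narrowing of 3.74-fold (3.06 to 4.61). Gata2 and Lmo2, which moved in opposite directions, stood at 76.7 to 1 in WT and 15.1 to 1 in 2KR, a narrowing of 5.07-fold (4.14 to 6.25). Lmo2 thus had the lower transcript level beside each of these partners in both libraries.

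**Figure D3:**
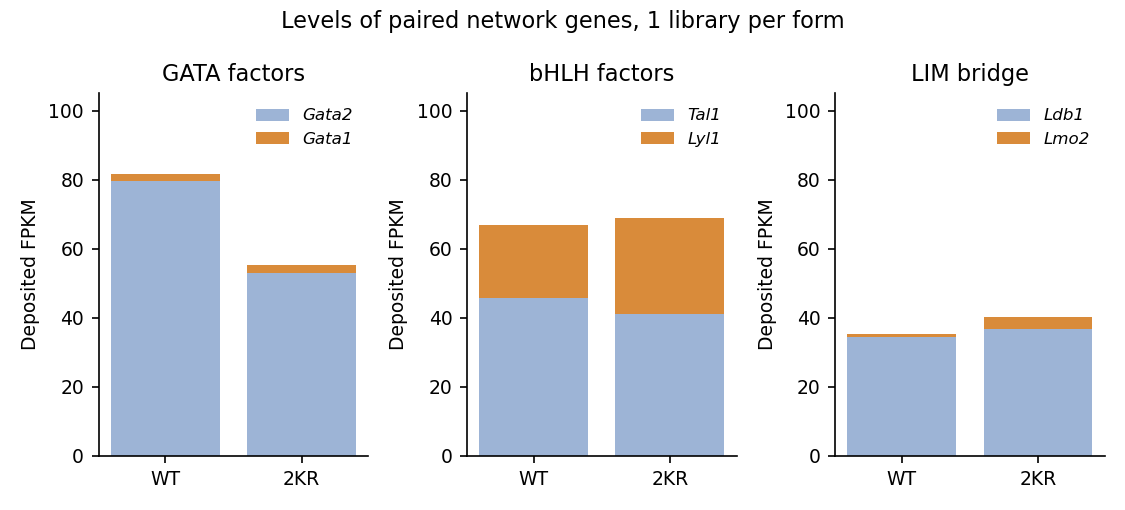
Stacked deposited FPKM (y axis, from 0) in the WT and the 2KR library (x axis) for Gata2 and Gata1, Tal1 and Lyl1, and Ldb1 and Lmo2. The GATA sum is 81.7 FPKM in WT and 55.3 in 2KR, the bHLH sum is 66.8 and 69.0 with a larger share of Lyl1 in 2KR, and Lmo2 is a thin top layer on Ldb1 in both.

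Klf1 (ENSMUSG00000054191, chromosome 8, 84901928 to 84905295, plus strand), the erythroid factor that binds CACCC letters and is a target of GATA1, was the least abundant member. It had 19 counts in WT against 39 in 2KR, at 0.70 and 1.24 FPKM. Its ratio of 1.74 had a wide interval that held 1 (0.98 to 3.19), and a difference was not detectable at this depth. With a pseudocount of 0.1 CPM in place of 1, its log2 ratio was 0.75 and it was past the 1.5-fold rule.

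The repressors of the network were at different levels. Gfi1b (ENSMUSG00000026815, chromosome 2, 28609450 to 28621982, minus strand), a zinc finger repressor needed for erythroid cells and megakaryocytes, had 197 counts in WT against 309 in 2KR. The level was 3.53 FPKM in WT and 4.76 in 2KR, which is 1.33-fold higher (1.11 to 1.60). Cbfa2t3 (ENSMUSG00000006362, chromosome 8, 122628739 to 122699109, minus strand) encodes ETO2, the corepressor that joins the TAL1 complex and holds back its erythroid targets. It had 1778 counts in WT against 2072 in 2KR, at 12.4 and 12.5 FPKM. Its ratio of 0.99 (0.93 to 1.05) was the nearest to 1 of the 10. Its log2 ratio was just above 0 (0.004) when library totals alone were used, and also on FPKM + 1 (0.004). Cbfa2t3 was 3.53 times Gfi1b per length in WT and 2.62 times in 2KR.

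**Figure D4:**
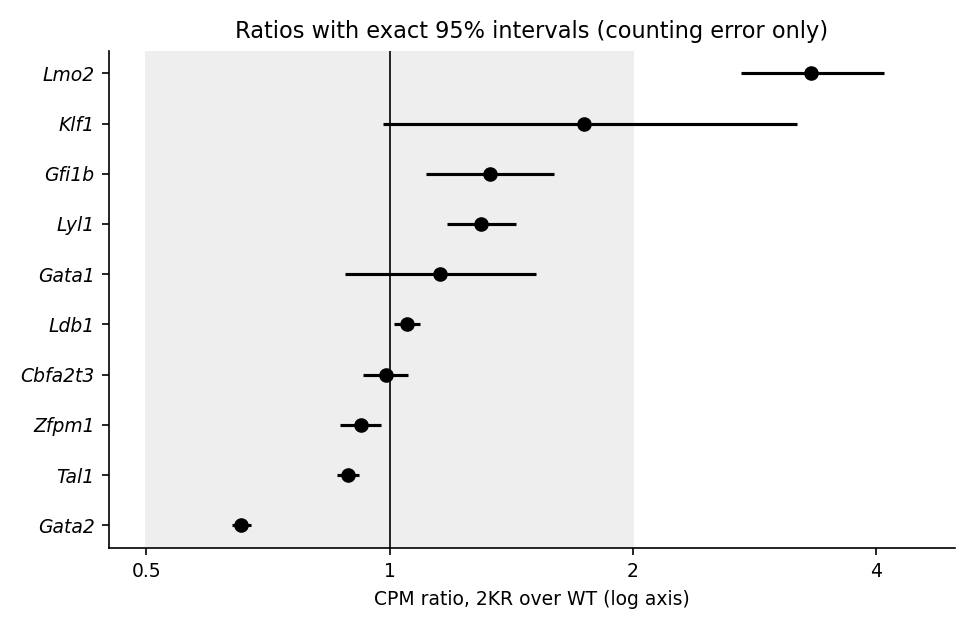
CPM ratio of 2KR over WT (x axis, log scale) of each network gene (y axis, ordered by ratio), with exact intervals for counting error as bars, a line at 1 and the range within 2-fold shaded. The interval of Lmo2 lies beyond the shading, that of Gata2 is narrow and below 1, and those of Klf1, Gata1 and Cbfa2t3 hold 1.

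By order of FPKM, Gata2, Tal1 and Ldb1 led in both libraries and Klf1 was last in both. Lyl1 passed Zfpm1 in 2KR (27.8 against 26.8 FPKM), and Lmo2 passed Gata1 (3.50 against 2.34 FPKM). The sum over the 10 members was 229 FPKM in WT and 210 in 2KR, and the lower Gata2 level alone was larger than this difference.

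Among partners of the bHLH factors, the inhibitor genes Id1 and Id2 had the ratios farthest from 1. E proteins pair with TAL1 and LYL1 on the E-box, and ID proteins hold E proteins away from DNA. Of 7 such genes 6 were tested, with a median log2 ratio of -0.20. On the lower side 1 was past 2-fold and 2 past 1.5-fold, beside 4.56% and 9.67% of all tested models. None was higher by either rule, beside 2.66% and 6.92% of all tested models. Id1 had 304 counts in WT against 152 in 2KR, 2.36-fold lower (1.93 to 2.88). Id2, the most abundant of them, was 1.64-fold lower (1.58 to 1.71), from 309 FPKM in WT to 191 in 2KR. The E proteins had ratios on both sides of 1. Tcf3, the most abundant of them per length, was at 16.3 and 18.4 FPKM, a ratio of 1.11 (1.06 to 1.17). Tcf12 was at 6.07 and 5.41 FPKM, a ratio of 0.88 (0.84 to 0.92), and Tcf4 had a ratio of 1.04 (0.97 to 1.12). The inhibitor gene Id3 was at 21.6 and 18.9 FPKM, a ratio of 0.86 (0.79 to 0.95), and Id4 had 0 counts in both libraries.

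Relatives of LMO2 and LDB1 and proteins that act on LDB1 were read as 1 list. Of these 8 LIM-only and LDB partners 5 were tested, their median was 0.15, and none passed the 1.5-fold rule. Over all tested models 6.92% passed it on the higher side and 9.67% on the lower. Lmo4, the LIM-only relative that was tested, had a ratio of 1.13, and its interval held 1 (0.998 to 1.28). Rlim, a ubiquitin ligase that targets LDB1, had a ratio of 1.17 (1.11 to 1.23), and Ssbp2, which protects LDB1 from it, had a ratio of 0.85 (0.80 to 0.89). Lmo1, Lmo3 and Ldb2 had 0 counts in both libraries.

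Among 10 paralogs of the members, 5 were tested, with a median of -0.04. At 1.5-fold, 1 was higher and 2 were lower, beside 6.92% and 9.67% of all tested models. Of these 2, 1 was lower by at least 2-fold, beside 4.56% of all tested models. Runx1t1, the ETO paralog of Cbfa2t3, had 713 counts in WT against 128 in 2KR and was 6.56-fold lower (5.43 to 7.99), at 2.74 and 0.42 FPKM. Klf2 was 1.80-fold lower (1.51 to 2.16). Gfi1, the granulocytic paralog of Gfi1b, was 1.52-fold higher (1.41 to 1.63), at 11.0 and 17.0 FPKM. Gfi1 thus stood above Gfi1b per length in both libraries. Gata6 and Zfpm2 had 0 counts in both libraries.

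The corepressor machinery recruited by GFI1B, ETO2 and FOG1 had ratios on both sides of 1, most of them within 1.5-fold. All 17 listed genes of the LSD1, CoREST and NuRD complexes and their associates were tested, with a median of 0.04. None was at least 1.5-fold higher and 1 was at least 1.5-fold lower, beside 6.92% and 9.67% of all tested models. The counting interval lay wholly above 1 for 7 of them and wholly below 1 for 4, beside 31.6% and 28.5% of all tested models. The gene past 1.5-fold was Rcor3, a CoREST protein, 1.79-fold lower (1.56 to 2.05). Chd4 and Mta2, subunits of NuRD, were the most abundant, with ratios of 0.98 (0.96 to 1.01) and 0.93 (0.90 to 0.96). The histone deacetylase gene Hdac2, at 1.47 (1.38 to 1.56), and the NuRD genes Mta3, at 1.44 (1.36 to 1.52), and Rbbp7, at 1.38 (1.32 to 1.45), were short of the rule on the higher side. Irf2bp2 was 1.40-fold lower (1.33 to 1.47).

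Runx1, Fli1 and Erg, which share many binding sites with GATA2, TAL1, LYL1 and LMO2 in stem cells, all had ratios above 1 and none passed 1.5-fold, with a median of 0.18. Fli1 was at 49.0 and 57.3 FPKM, a ratio of 1.15 (1.10 to 1.21), and Runx1 was at 18.3 and 21.0 FPKM, a ratio of 1.13 (1.09 to 1.17). Of 4 factors grouped here as opponents of GATA factors in the choice of lineage, 3 were tested, with a median of 0.60. At least 1.5-fold higher were 2, beside 6.92% of all tested models. Whether these factors oppose GATA factors in these cells was not tested. Cebpa, the factor of granulocyte commitment, was 1.63-fold higher (1.499 to 1.78), and the other was Gfi1, which is also among the paralogs. Spi1, which encodes PU.1, had 85 counts in WT against 82 in 2KR. Its ratio of 0.82 had an interval that held 1 (0.60 to 1.12). Cebpe, at 16 counts in WT and 7 in 2KR, was not tested.

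**Figure D5:**
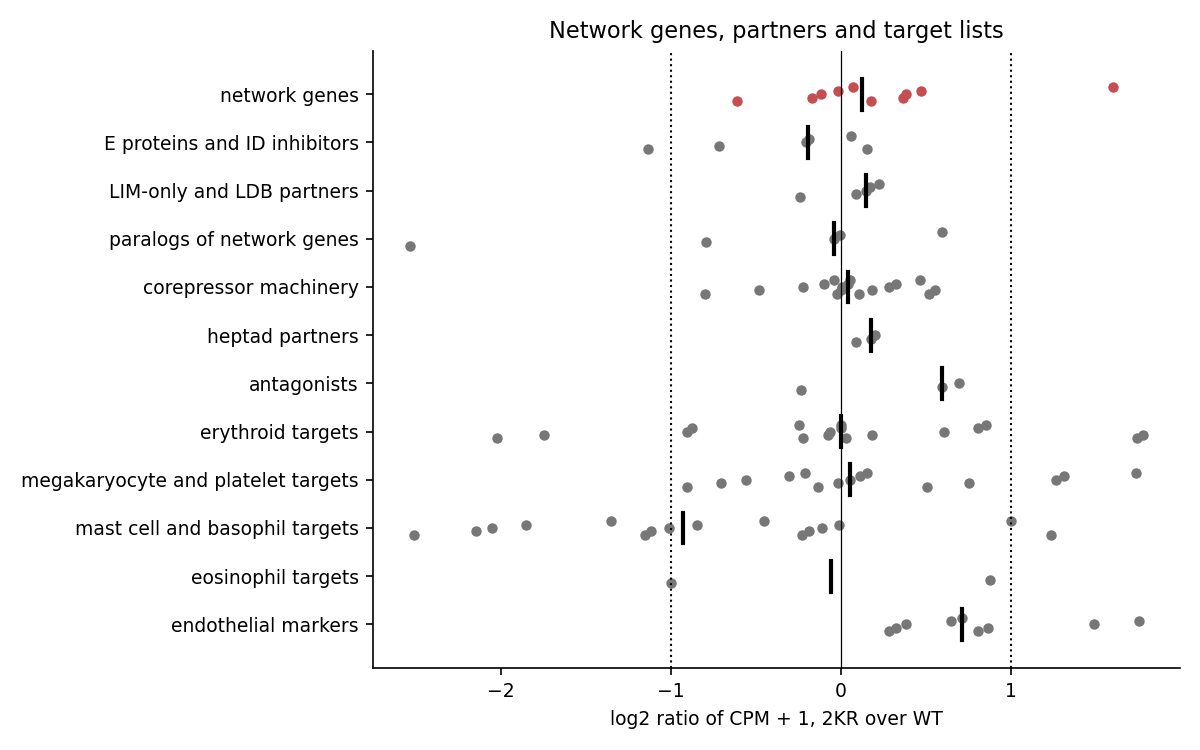
Log2 ratio of CPM + 1 (x axis, 2KR over WT) of each tested gene (points) in the network, its partner lists, the target lists and the endothelial markers (y axis), with black bars at the medians and dotted lines at 2-fold. The progenitor, lymphocyte, macrophage and neutrophil lists are not shown. The mast cell list lies to the left with a median of -0.93, the endothelial list to the right with 0.71, and the network genes are centred at 0.12.

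Target genes of the network did not move as a block. Of 33 erythroid genes 32 were found and 17 tested, with a median close to 0 (-0.0002). Of the tested genes 2 were at least 2-fold higher and 2 at least 2-fold lower, beside 2.66% and 4.56% of all tested models. At 1.5-fold, 5 were higher and 4 lower, beside 6.92% and 9.67% of all tested models. The list summed to 144 FPKM in WT and 224 in 2KR. Hemgn, a haematopoietic nuclear protein gene that GATA1 activates, had 1154 counts in WT against 4712 in 2KR and was 3.46-fold higher (3.25 to 3.70), from 24.8 to 87.1 FPKM. Car2, carbonic anhydrase 2, was 3.80-fold higher (3.02 to 4.84). The other genes past 1.5-fold on the higher side were Hba-a1, an alpha globin gene, at 187 and 415 counts, Epb42 at 23 and 63, and Tfrc. Tmcc2 was 8.59-fold lower (4.89 to 16.3), Sptb, a spectrin gene of red cells, had 64 and 8 counts, Hbb-bt, a beta globin gene, had 55 and 26, and Nfe2, a factor of platelet and globin genes, was 1.92-fold lower (1.68 to 2.19). The transferrin receptor gene Tfrc was 1.53-fold higher (1.46 to 1.59), and Sptan1, a spectrin gene, had a ratio of 0.96 (0.93 to 0.98). Several genes of mature red cells were at the floor: Slc4a1, Rhag, Kel, Hbb-bs, Hbb-bh1 and Hba-a2 had 0 counts in both libraries. There, 3 counts, the limit that a count of 0 allows, are 0.172 CPM in WT and 0.146 in 2KR. The globin genes Hba-a1, at 8.90 FPKM in WT and 17.0 in 2KR, and Hbb-bt, at 4.44 and 1.81, were above it. Hba-a2 is nearly identical to Hba-a1, and Hbb-bs to Hbb-bt, so reads of either gene of a pair may be credited to a single copy or lost.

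Of 23 megakaryocyte and platelet genes 15 were tested, with a median of 0.06. Of the tested genes 3 were at least 2-fold higher and none at least 2-fold lower, beside 2.66% and 4.56% of all tested models. At 1.5-fold, 4 were higher and 2 lower, beside 6.92% and 9.67% of all tested models. The list summed to 470 FPKM in WT and 672 in 2KR. The chemokine gene Pf4 (platelet factor 4) was 3.35-fold higher (3.19 to 3.52), from 88.6 to 301 FPKM, which is more than the whole difference in the sum. Ppbp, its neighbour chemokine of platelets, was 2.64-fold higher (2.21 to 3.16). Zfp385a was the third past 2-fold, at 383 and 1115 counts, and Gp1ba, a subunit of the von Willebrand factor receptor, was at 658 and 1319. Besides Nfe2, the gene past 1.5-fold on the lower side was an integrin gene, Itgb3, 1.63-fold lower (1.60 to 1.67), while its partner Itga2b had a ratio of 0.99 (0.97 to 1.01). Gp6, Treml1 and Tubb1 had 0 counts in both libraries.

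Mast cell and basophil genes were mostly lower in 2KR. Of 20 genes 16 were tested, with a median of -0.93, 8 lower by 2-fold or more and 2 higher by as much. Over all tested models 4.56% were lower and 2.66% higher by that rule. The list summed to 5502 FPKM in WT and 4266 in 2KR. Cpa3, the mast cell carboxypeptidase, was the most abundant at 3579 FPKM in WT and 1676 in 2KR. Mitf, which drives mast cell maturation, was at 1.43 and 0.25 FPKM, 5.78-fold lower (4.27 to 7.95), and Hpgds, a prostaglandin synthase of mast cells, was 4.18-fold lower (3.32 to 5.31). Those at least 2-fold higher were the proteases Mcpt8, at 221 and 530 FPKM, and Gzmb, at 628 and 1277 FPKM. Fcer1a and Tpsab1 had 0 counts in both libraries. The part of a different share of mast cells in the lower Gata2 was not tested, and neither was any part of Gata2 in the ratios of these genes. Eosinophil genes were near the floor, with 2 of 10 tested and 5 at 0 counts in both libraries, namely Ear1, Ear2, Ear6, Epx and Prg3. Il5ra had 43 counts in WT against 15 in 2KR, and Siglecf had 10 and 39.

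Markers of other cells that use members of this network were read beside Lmo2, which endothelial cells also express. Of 12 endothelial markers 9 were tested, and all 9 had ratios above 1, with a median of 0.71. At least 2-fold higher were 2 and at least 1.5-fold higher were 6, beside 2.66% and 6.92% of all tested models. The counting interval lay wholly above 1 for 8 of the 9, beside 31.6% of all tested models. The list was chosen with earlier results of these data known, so these shares are a description and not a test. The list summed to 98.1 FPKM in WT and 142 in 2KR, with Egfl7 3.53-fold higher (3.07 to 4.06), Esam 2.91-fold higher (2.56 to 3.31), Flt1 at 1.30 (1.26 to 1.35) and Pecam1 at 1.22 (1.19 to 1.25). Blood progenitors express several of these genes as well. The endothelial genes Cldn5 and Emcn had 0 counts in both libraries, and Sox18, at 9 counts in WT and 4 in 2KR, was not tested. The part of endothelial cells in the higher Lmo2 was not tested. Of 11 B and T lymphocyte markers 2 were tested, with Lck at 111 and 367 counts and Cd3g at 72 and 40, and Cd3e, Cd79b, Ebf1 and Pax5 at 0 in both. Of 9 macrophage markers 4 were tested, with 1 at least 1.5-fold higher, Adgre1, and 1 lower, Cd68, and a list sum of 18.2 FPKM in WT and 16.5 in 2KR. Of 10 neutrophil markers 4 were tested, with Ctsg and Mpo at least 2-fold higher and a list sum of 222 and 504 FPKM, nearly all of it Ctsg, and Camp at 0 counts in both. The other 2 tested were Mmp8, with a ratio of 0.83 (0.69 to 0.99), and Ngp, at 0.85 (0.47 to 1.52). Elane, at 5 and 10 counts, and Prtn3, at 6 and 14, were not tested. The progenitor markers had a median of 0.12. Of these, Mpo, Cd34 and Flt3 were the 3 at least 1.5-fold higher, Mpo by 2.22-fold (1.93 to 2.56) and Cd34 by 1.86-fold (1.81 to 1.92). Cd27 and Ly6a were the 2 at least 1.5-fold lower, beside 9.67% of all tested models, and Myb was at 113 and 160 FPKM.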

How the data were processed

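RNA-seq libraries of 1 WT and 1 2KR sample were read from tables in which, per the file headers, the authors deposited raw counts and FPKM per gene model. HISAT2 2.0.4 and GRCm38 are named in the submitters' processing notes; the counting program, annotation release and strandedness are not stated in the sources used here. The deposited FPKM equalled count over a fixed length and library total, within 0.1%, in 15403 of the 15403 models read in both libraries. Strand and overlaps came from GENCODE M21 on GRCm38.

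Counts were scaled with TMM of edgeR 4.0.16 (factors 0.993 and 1.01) in R 4.3.3. Ratios used CPM, and calls used the log2 ratio of CPM + 1 at 2-fold and 1.5-fold over models averaging 1 CPM or more. Intervals of ratios are exact (Clopper-Pearson), conditional on the summed count of the model (for balances between 2 genes, exact intervals of the odds ratio), and cover counting error only. Medians and call counts of a list are over its tested genes, and sums over all its genes. No test was run, since each form has 1 library. The calling rule and intervals were checked on simulated counts with counting noise alone. Variation between libraries was not part of that check, so it says nothing about it. Python 3.11.15 and scipy 1.17.1 were used for later steps.

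All members were named. From each other list, the rule took up to 2 genes with the largest rise and 2 with the largest fall past 1.5-fold at 5 CPM or more, and the 2 with the highest mean; most genes at 0 counts in both libraries were named too. Tcf3, Tcf4, Id3, Lmo4, Hdac2, Mta3, Rbbp7, Irf2bp2, Ptprc, Spi1, Cebpe, Flt3, Hba-a1, Epb42, Sptb, Hbb-bt, Zfp385a, Gp1ba, Sox18, Mmp8, Ngp, Elane and Prtn3 fall outside it and were chosen after their values were seen. Members and lists were chosen with earlier results of these data known. Alternatives were other scalings (DESeq2 1.42.0 size factors, library totals, totals without mitochondrial models, median centring), pseudocounts, filters, and FPKM. Other listed genes enter the counts and sums without being named, and Ahsp was not analysed here.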

Additional observations from a re-analysis of the deposited data

How the results depend on the processing

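Lmo2 was the 1 member at least 2-fold higher, and no member was at least 2-fold lower, under all 9 alternatives; the log2 ratio of Lmo2 ranged from 1.14 (FPKM) to 1.72 (pseudocount of 0.1 CPM). At 1.5-fold, members higher were 2 with a pseudocount of 0.1 CPM (Klf1 added), and members lower were 0 on FPKM, where Gata2 was short of the rule. Gata2 ranged from -0.63 to -0.58. Of the 10 members, Cbfa2t3 changed sign under 2 alternatives, library totals alone and FPKM, with a range of -0.03 to 0.004. Klf1, at a mean of 1.49 CPM, was not tested at a filter of 5 CPM. Over all tested models, those at least 2-fold higher fell from 331 to 207 with a mean of at least 5 CPM, 147 with a pseudocount of 5 CPM and 166 on FPKM, and those at least 2-fold lower from 569 to 377, 297 and 282. At 1.5-fold, a pseudocount of 5 CPM gave 500 higher and 795 lower, and FPKM gave 571 and 766, against 863 and 1205. These settings test fewer models or shrink the ratios of low ones by construction. No paired analysis was possible because each form has 1 library. Counting error limits Klf1 and Gata1, and variation between cultures was not measured.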
